A study of Mus musculus with 8 samples.

Results

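The cytosolic ribosomal proteins are the protein components of the ribosomes that translate nuclear mRNAs. Their genes were taken from the deposited table as the protein-coding rows whose symbol starts with Rpl or Rps followed by a digit, p or a, without the S6 kinases and without symbols that contain -ps. The rule found 86 genes among 21980 protein-coding rows and 53710 rows in all, and measured values played no part in it. It takes in 43 genes for proteins of the large subunit, 31 for proteins of the small subunit, 3 for the stalk, 8 paralogs of ribosomal protein genes and Rps19bp1, whose product binds RPS19 and is not itself a ribosomal protein. RPS30 is made as a fusion with a ubiquitin-like protein from Fau, which the rule does not reach, and Fau is given separately.

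RNA sequencing was performed on pineal glands of male mice at 5 months of age, sampled at zeitgeber time 0.5 h, that is, just after lights on. The 4 WT libraries, from C57BL/6 mice, are WT-11 together with WT-21, WT-22 and then WT-23, and values of the WT group are given in that order. The 4 5xFAD libraries are numbered 1 to 3 and 21, and their values are also given in that order. These mice carried the human transgenes APPSwFlLon and PS1*M146L*L286V on a B6 background, driven by the Thy1 promoter, which is mainly active in neurons. Each of the 8 libraries was a pool of glands from 5 to 7 mice, the groups came from different suppliers, and supplier and genotype therefore cannot be told apart. The deposited values are FPKM, that is, fragment counts scaled by transcript length and by the size of the library. Levels can therefore be compared between genes, with the limit that short transcripts and near-identical gene copies affect them. At the depth of these libraries 100 FPKM on a transcript of 834 nt, the median length of the 86 genes, stood for about 940 to 1483 fragments, so counting error was small beside the spread between pools.

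A eukaryotic ribosome has a large subunit, which forms peptide bonds, and a small subunit, which decodes the mRNA. Each ribosomal protein is present in about the same number per ribosome, with the exception of the stalk proteins, and the mRNAs of the family are among the most abundant of most cells. Many of these mRNAs start with an uninterrupted run of C and T bases right at the 5′ end, the terminal oligopyrimidine (TOP) tract, through which mTOR signalling and LARP1 control their translation. Pinealocytes, the endocrine cells of the pineal gland, make melatonin at night with enzymes whose synthesis follows the light-dark cycle. In bulk tissue, fewer cells of a type and less RNA per cell cannot be told apart.

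The start of the mRNA is shown for 10 genes of the family, because the tract there is the feature that the family is best known for sharing. Promoter sequences came from RefSeq on GRCm38.p6, in which 66 of the 86 genes had an entry. Each sequence runs from 10 bases before the annotated start to 20 bases from it, on the strand of the gene, and capitals mark runs of at least 5 pyrimidines. Where a gene had several annotated starts, one that opened with a tract was taken. Rps6, Rpl28 and Rpl35 are tract-bearing examples from both subunits, Rps13 and Rpl22l1 had the smallest p values, Rps18 is described with its near-identical copy, and the others show paralogs beside their parent genes.
Rps6, chr4:86857348-86857377, minus strand: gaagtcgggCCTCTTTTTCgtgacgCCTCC
Rpl28, chr7:4792955-4792984, plus strand: tctcgtgTCTCTCTTTCCgTCTCCggccgc
Rpl35, chr2:39005112-39005141, minus strand: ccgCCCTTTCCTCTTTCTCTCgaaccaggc
Rps18, chr17:33955646-33955675, minus strand: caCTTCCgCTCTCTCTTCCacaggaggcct
Rps13, chr7:116334171-116334200, minus strand: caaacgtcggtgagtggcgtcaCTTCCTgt
Rps27, chr3:90213629-90213658, minus strand: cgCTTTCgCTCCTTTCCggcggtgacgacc
Rps27rt, chr9:114982720-114982749, minus strand: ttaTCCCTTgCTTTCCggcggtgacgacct
Rps27l, chr9:66946076-66946105, plus strand: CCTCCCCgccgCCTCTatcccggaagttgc
Rpl22, chr4:152325716-152325745, plus strand: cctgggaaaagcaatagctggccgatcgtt
Rpl22l1, chr3:28805498-28805527, plus strand: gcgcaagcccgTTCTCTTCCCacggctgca

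Across the family the pyrimidine tract was common at or near the annotated start. A C at the annotated first base followed by at least 4 pyrimidines was found, at any annotated start of the gene, in 14 of 66 ribosomal protein genes (21.2%) and in 3.01% of the 27025 genes of the RefSeq table. A run of at least 8 pyrimidines within 20 bases of the start on either side was found in 30 of 66 (45.5%) against 18.4% of all genes. Within the whole window of 250 bases before to 50 after the start, the letters CTTTCC on the gene's strand occurred in 27 of 66 (40.9% against 16%). CCGGAAG on either strand, a core that ETS-family factors such as GABPA recognise, occurred in 26 of 66 (39.4% against 9.93%). AAGATGG on either strand, the core of YY1 sites, occurred in 10 of 66 (15.2% against 7.28%), and TATAAA on the gene's strand in 6 of 66 (9.09% against 9.77%). CTTTCC can lie inside the tract, and the other motifs can overlap it. These are matches of letters in windows set by annotated starts, and a start that is off by a few bases hides a tract.

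The family was highly expressed in the pineal gland. Of the 86 genes, 82 averaged 1 FPKM or more, and these 82 had a median of 260.4 FPKM, where the median of all 13094 protein-coding genes tested was 10.4 FPKM. Among the 100 most abundant protein-coding genes 27 were ribosomal protein genes, and among the 500 most abundant 74 were. The large subunit genes ranged from 88.3 FPKM (Rpl29) to 1185 FPKM (Rpl41) with a median of 263 FPKM, and the small subunit genes from 50.8 FPKM (Rps20) to 995 FPKM (Rps27) with a median of 288 FPKM. The paralogs Rpl22l1 (121 FPKM) and Rpl36al (81.3) lay within this range, and the plot of levels by gene shows all of them in order.

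**Figure D1:**
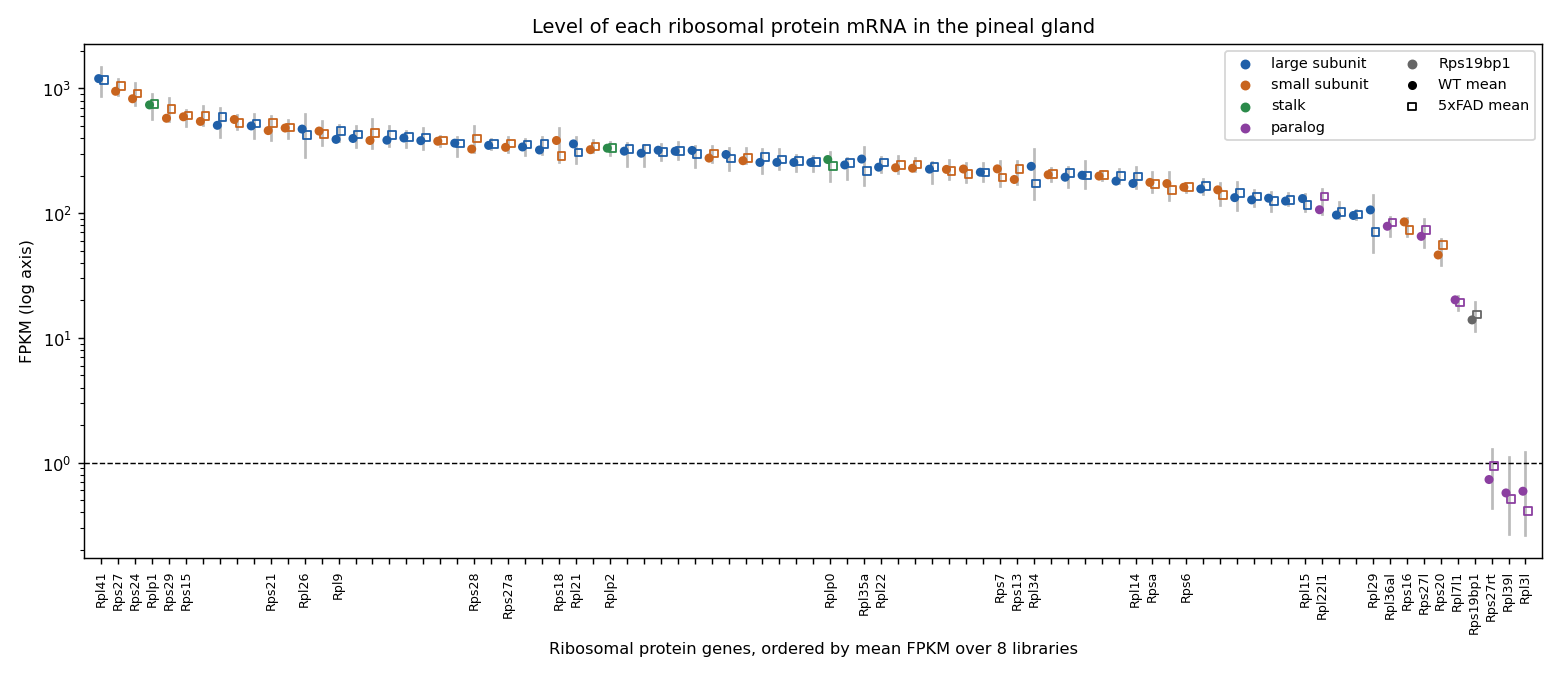
FPKM (log axis) of the 85 ribosomal protein genes listed above 0, ordered by mean over 8 libraries; circles are WT means, squares 5xFAD means, grey lines the lowest to highest library above 0, colours the subunit, and the dashed line the filter of 1 FPKM. Some of the genes described in the text are labelled. Core subunit genes lie between 50.8 and 1185 FPKM, while 3 paralogs lie below 1.

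Rpl41, which encodes a very short peptide of the large subunit, had 870.2, 1244, 1475 and 1204 FPKM in WT and 1347, 1126, 867 and 1344 FPKM in 5xFAD. WT-11 and 5xFAD-3 were the low libraries and the groups overlapped. Rps27, a zinc finger protein of the small subunit, had 893, 1006, 945 and 949.7 FPKM in WT and 1181, 1049, 886 and 1049 FPKM in 5xFAD. Next came Rps24 with 826 ± 19.3 FPKM in WT and 909 ± 161 in 5xFAD (SD, n = 4 libraries each, here and in what follows), Rplp1 with 738 ± 119 and 751 ± 101, Rps29 with 576 ± 25.3 and 686 ± 113, and Rps15 with 592 ± 65.8 and 606 ± 71.2. In each of these 6 genes the group means lay closer together than the larger of the SDs. At the other end of the order, Rps27l had a mean of 69.3 FPKM, Rps20 50.8, Rpl7l1 19.7 and Rps19bp1 14.6 FPKM over the 8 libraries.

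Before the groups were compared, the libraries were checked against their labels. Pineal markers were present throughout: all 16 pinealocyte marker genes were listed above 0, with a summed level of 2087 to 4231 FPKM in WT and 2959 to 4597 in 5xFAD, and Tph1, the first enzyme of melatonin synthesis, had 865 ± 295 and 1252 ± 602 FPKM. App, the mouse counterpart of the APP transgene, had 322 ± 20.9 and 307 ± 35.3 FPKM, and the human transgenes have no row of their own. Xist, the RNA of the inactive X chromosome of female cells, had 13.3 FPKM in WT-22 and 0.005 to 0.04 FPKM in the other 7 libraries, although all mice are stated to be male. Y-linked genes were present in all 8 libraries, WT-22 included (Uty, 19.2 to 26.1 FPKM in all and 21.2 in WT-22). Results are therefore also given without WT-22. In that library the X-linked Rps4x (364 FPKM), Rpl10 (358), Rpl39 (255) and Rpl36a (264) lay inside the range of the other WT libraries. In the study's sequencing summary the share of unread bases was low in 5xFAD-1 to 5xFAD-3 and in WT-11 and high in the other 4, so the low set holds 1 WT library and the high set 1 5xFAD library.

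No ribosomal protein gene passed the test between the groups. With limma on log2(FPKM + 0.1), 0 of 82 genes passed an adjusted p of 0.05 (Benjamini-Hochberg over 13094 protein-coding genes), where 5 genes in all did (0.0382%). At an unadjusted p under 0.05, 2 of the 82 were higher in 5xFAD and 0 lower, beside 4.57% of all genes tested that were higher and 3.33% that were lower (7.9% in either direction). In 0 of the 82 did all 5xFAD libraries lie above all WT libraries or below them, beside 2.11% and 2.23% of all genes. The counts at an unadjusted p were thus not above the background in either direction. Without WT-22, 0 of 82 passed an adjusted p of 0.05 (93 of all genes, 0.71%, did), 4 were higher at an unadjusted p under 0.05 (9.64% of all genes) and 4 lower (8.45%), and the median log2 fold change of the 82 was 0.06. Those higher were Rps19bp1, Rpl22l1, Rps20 and Rps13, and those lower Rpl34, Rps18, Rpl29 and Rps16, with adjusted p from 0.181 to 0.273. The p values measure the spread between pools of mice.

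The fold changes of the family were small. They ran from −0.55 (Rpl29) to 0.34 (Rpl22l1) on the log2(FPKM + 0.1) scale with a median of 0.05, while the median of all genes was −0.01 and that of the 1116 other protein-coding genes of at least 50 FPKM was 0.11. Of the 82 genes, 56 lay above 0 and 26 below. So did 48.7% of all genes lie above 0, and 789 of the 1116 other protein-coding genes of at least 50 FPKM. The count was thus not unusual for abundant genes. The median of the 82 changed sign to −0.04 with 28 above 0 under quantile normalization, and to −0.04 with 34 above 0 under array weights. It was also −0.01 without WT-11 and −0.01 without 5xFAD-1. No direction is therefore read from it. The median was 0.21 among the libraries with a low share of unread bases and −0.06 among those with a high share, where 1 library alone stood for WT and for 5xFAD, respectively. By role, the median was 0.06 for the large subunit, 0.03 for the small subunit, 0.00 for the stalk and 0.14 for the 4 paralogs tested. For 80 of 82 genes the 95% interval of the fold change lay within −1 and 1 on the log2 scale, and for 58 it lay within −0.5 and 0.5. The plot of fold changes shows intervals that cross 0 for all genes but Rpl22l1 and Rps13.

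**Figure D2:**
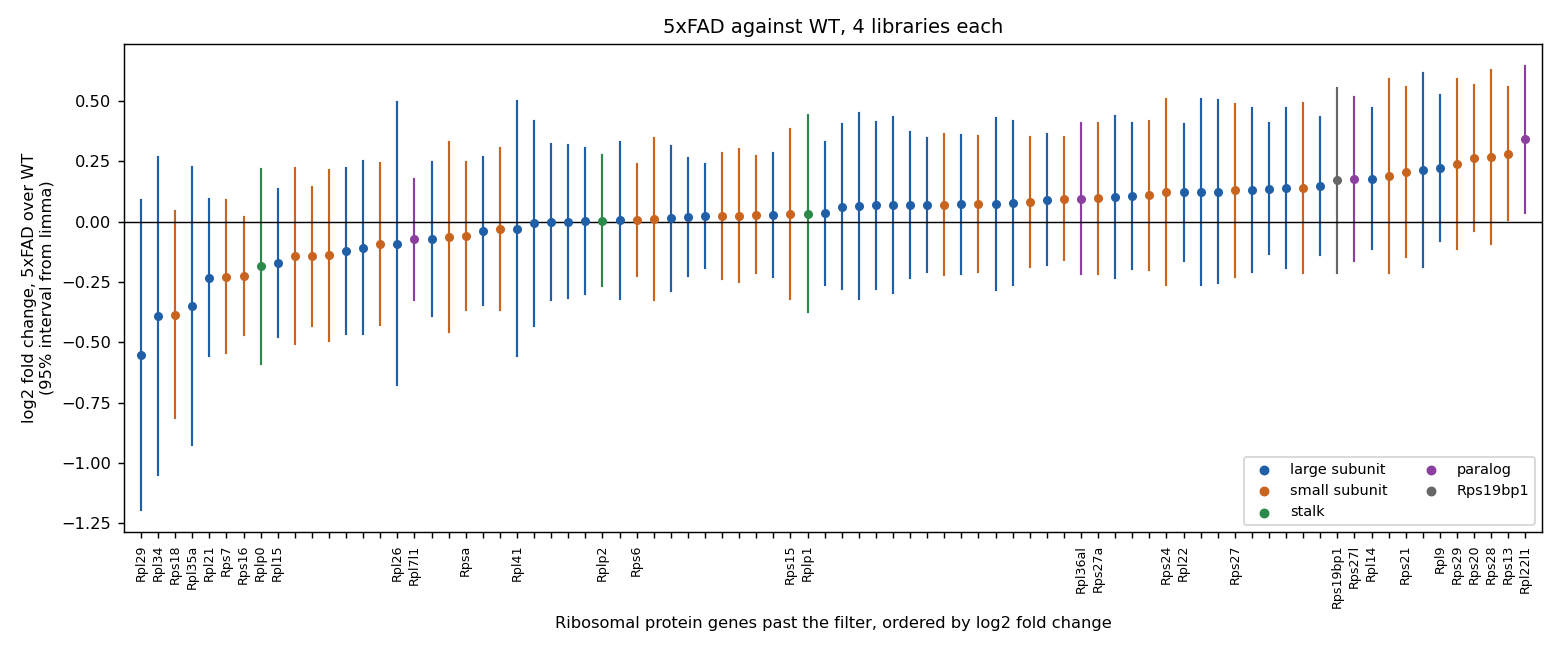
log2 fold change of 5xFAD over WT for the 82 ribosomal protein genes past the filter, with its 95% interval from limma, ordered by size and coloured by role, with some of the genes described in the text labelled. The estimates run from −0.55 to 0.34, and the widest intervals belong to genes at the low end such as Rpl29 and Rpl34.

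Rpl22l1, a paralog of the RNA-binding protein RPL22 that can take its place in the ribosome, was the gene with the smallest p. It had 110.4, 104, 114 and 97.6 FPKM in WT and 149, 156, 131 and 109 FPKM in 5xFAD. The 5xFAD libraries 1 to 3 lay above all WT libraries and 5xFAD-21 lay among them. The log2 fold change was 0.34 (standard error 0.13, unadjusted p = 0.0318, adjusted p = 0.607 from limma), and it was 0.39 and 0.05 within the low and high sets of unread bases. Its parent Rpl22 had 234 ± 18.6 FPKM in WT and 255 ± 28.5 in 5xFAD (log2 fold change 0.12, adjusted p = 0.801). Rpl22l1 stood at 49.3, 40.6, 47.3 and 45.7% of Rpl22 in the WT libraries and at 54.6, 54.7, 58.7 and 45.4% in the 5xFAD libraries. The ratio in 5xFAD-21 lay inside the WT range, as the level did. Rpl22l1 is on chromosome 3 and Rpl22 on chromosome 4, and only the former showed a tract next to its annotated start in the sequences printed above.

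Rps13, a small subunit protein that lies at a bridge between the subunits, had 182, 171, 204 and 188 FPKM in WT and 263, 232, 203 and 211 in 5xFAD. The lowest 5xFAD library, 5xFAD-3, lay just under the highest WT library, WT-22. The log2 fold change was 0.28 (standard error 0.12, unadjusted p = 0.0471, adjusted p = 0.627 from limma). Rps20, a small subunit protein at the head of the subunit, had 38.5, 45.7, 53.4 and 47.3 FPKM in WT and 62.1, 59.1, 46.9 and 53.5 in 5xFAD (log2 fold change 0.26, adjusted p = 0.642). Rps28 had 327 ± 21.1 FPKM in WT and 398 ± 77.3 in 5xFAD, with the highest value, 503 FPKM, in 5xFAD-1 and the groups overlapping. The next in the order of p were Rpl9 (log2 fold change 0.22), Rps29 (0.24), Rpl14 (0.18) and Rps21 (0.21), with adjusted p from 0.694 to 0.743. In Rps28, Rpl9, Rps29 and Rpl14 the highest library was 5xFAD-1, and Rps21 had 596 FPKM in both 5xFAD-1 and 5xFAD-2.

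On the lower side, Rps16, a small subunit protein near the decoding site, had 82.1, 88.4, 78.1 and 91.6 FPKM in WT and 82.4, 65.3, 74.3 and 69.4 in 5xFAD. 5xFAD-1 lay among the WT libraries and the other 5xFAD libraries below them (log2 fold change −0.23, standard error 0.11, unadjusted p = 0.065, adjusted p = 0.636 from limma). Rpl29, a large subunit protein, had the largest SD over the 8 libraries on the log2 scale among the 82 genes past the filter (0.52). It had 70.4, 139, 76.2 and 139 FPKM in WT and 66.2, 90.4, 48.9 and 76.1 in 5xFAD, so that WT-21 and WT-23 stood apart from the other 6 libraries while WT-11 and WT-22 lay among the 5xFAD values (log2 fold change −0.55, standard error 0.28, adjusted p = 0.642). Rpl34 had 206, 327, 129.7 and 287 FPKM in WT and 226, 137, 161 and 170.2 in 5xFAD, again with WT-21 and WT-23 highest (log2 fold change −0.39, adjusted p = 0.740). Without these 2 libraries its log2 fold change was 0.06, and leaving out the highest WT values raises it by construction. Rpl35a had 279, 305, 192 and 309 FPKM in WT and 195, 337, 174 and 168 in 5xFAD, with 5xFAD-2 highest of all (log2 fold change −0.35, adjusted p = 0.732). Rps18 (−0.39), Rps7 (−0.23), Rpl21 (−0.23) and Rpl15 (−0.17) completed the list, with adjusted p from 0.642 to 0.746.

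**Figure D3:**
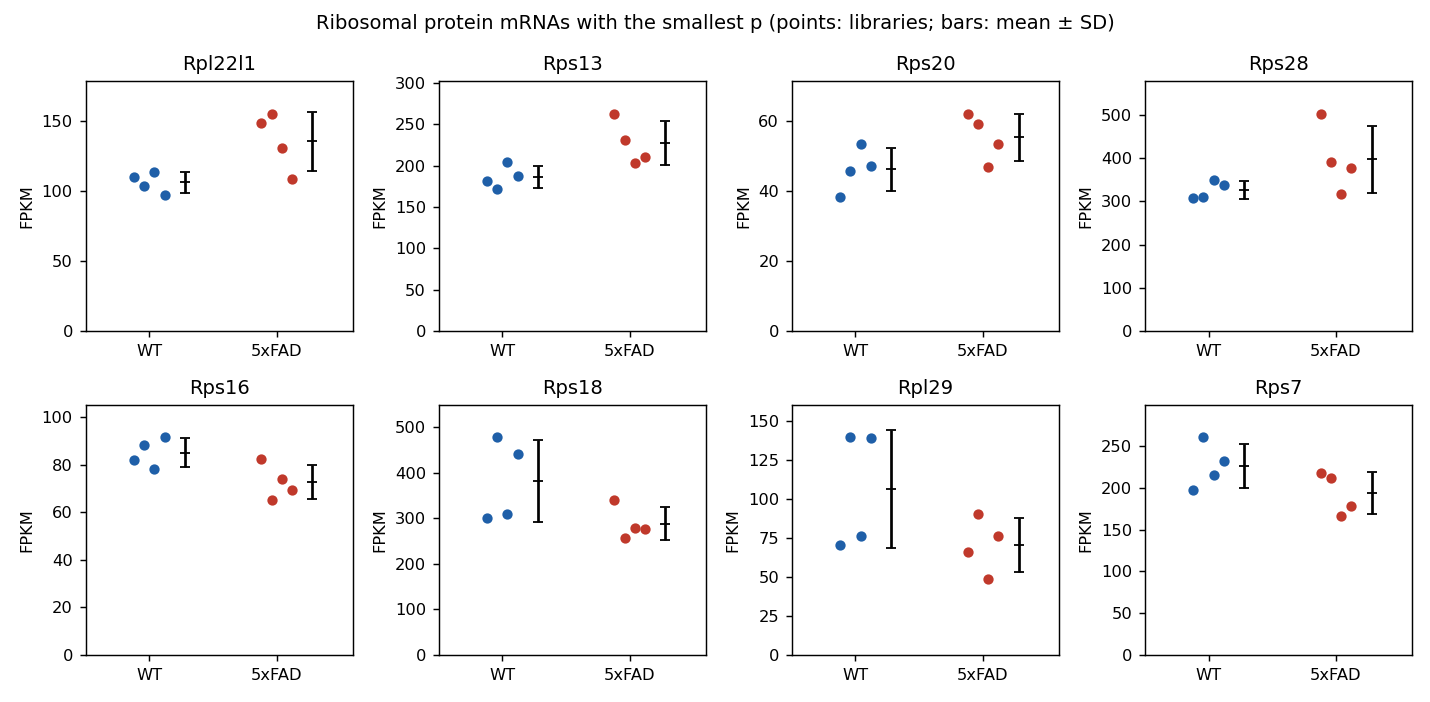
FPKM per library (points) with mean and SD (bars) of the 4 ribosomal protein genes with the smallest p in each direction, n = 4 libraries per group, axes from 0. The groups overlap in all 8 panels, and in Rps18 and Rpl29 the WT points split into a high and a low pair.

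The stalk of the large subunit, which recruits elongation factors, is built from RPLP0, RPLP1 and RPLP2. Rplp0 had 237, 305, 246 and 288 FPKM in WT and 307, 249.8, 219 and 182 in 5xFAD (log2 fold change −0.19, adjusted p = 0.790). Rplp1 and Rplp2 had log2 fold changes of 0.03 and 0.00 (adjusted p = 0.968 and 0.994), the latter with 332 ± 32.0 and 332 ± 14.9 FPKM. Rplp1 was thus more abundant than Rplp0 in all 8 libraries. Rps6, whose protein is the classical phosphorylation target of the S6 kinases, was even across libraries with 161 ± 11 FPKM in WT and 162 ± 8.98 in 5xFAD (log2 fold change 0.01, 95% interval −0.22 to 0.24), and its SD over the 8 libraries was 0.08 on the log2 scale. Rpsa, which encodes the laminin receptor precursor of the small subunit, had 176 ± 9.43 and 171 ± 29.2 FPKM. Rps27a, a fusion of ubiquitin with RPS27A, had 337 ± 25.3 and 362 ± 48.7 FPKM. Fau, outside the rule, was at a like level with 290.2 ± 44.7 and 308 ± 48.8 FPKM. Gnb2l1, now called Rack1, a scaffold on the small subunit, had 169 ± 16.8 and 154 ± 20.1 FPKM (log2 fold change −0.14, adjusted p = 0.789).

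Each tested paralog lay below its parent gene in all 8 libraries, Rpl22l1 least so with the ratios given above. Rps27l, a p53 target in many tissues, had 65.2 ± 10.3 FPKM in WT and 73.5 ± 11.1 in 5xFAD, which was 6.86 ± 0.944% and 7.09 ± 1.00% of Rps27. Rpl36al stood at 30.7 ± 0.884% of Rpl36a in WT and 32.2 ± 3.19% in 5xFAD, and Rpl7l1 at 6.37 ± 0.868% and 6.20 ± 0.544% of Rpl7. None of these 3 paralogs had an adjusted p under 0.769. The muscle paralog Rpl3l had a mean of 0.50 FPKM, where Rpl3 had 363 FPKM. Rpl39l, known from testis, had a mean of 0.540 FPKM and was listed at 0 in WT-22, where Rpl39 had 268 FPKM on average. Rpl10l, a testis paralog of Rpl10, was listed at 0 in all 8 libraries. Rps27rt, a retrogene of Rps27, had 0.837 FPKM on average, and all 255 of its coding bases are identical to those of Rps27, so the split of fragments between them is uncertain. Rps19bp1, the gene outside the ribosome, had 13.9 ± 3.65 and 15.4 ± 1.04 FPKM.

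The family shifted together from library to library. Each gene's log2 value was set against its own mean over the 8 libraries. In 5xFAD-1, 77 of 82 genes lay above their mean, with a median deviation of 0.21. In 5xFAD-3, 3 of 82 did (median −0.15), and in WT-11, 9 of 82 did (median −0.17). The other libraries lay between, with medians of 0.06 in WT-21, −0.01 in WT-22, 0.03 in WT-23, 0.07 in 5xFAD-2 and −0.02 in 5xFAD-21. Each group thus held 1 low library, and the genes of the large and the small subunit shifted alike, by −0.20 and −0.12 in WT-11, 0.21 and 0.22 in 5xFAD-1 and −0.17 and −0.14 in 5xFAD-3. The plot of deviations by library shows both subunits side by side.

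**Figure D4:**
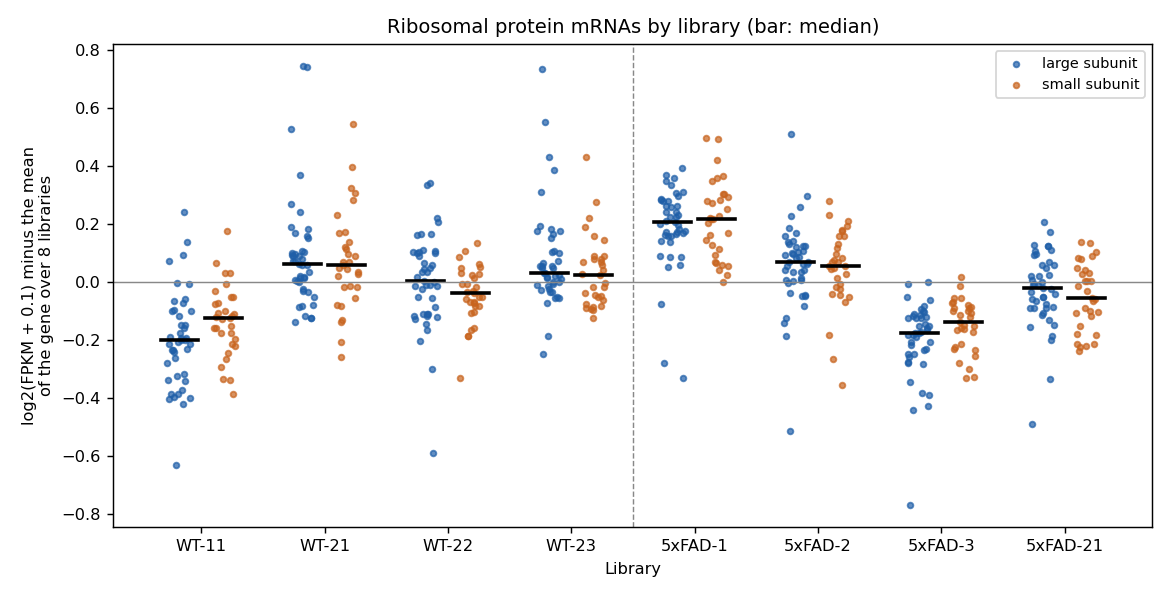
Deviation of each ribosomal protein gene's log2(FPKM + 0.1) from its own mean over the 8 libraries, by library; points are genes, blue the large and orange the small subunit, black bars medians, and the dashed line parts WT from 5xFAD. WT-11 and 5xFAD-3 sit low and 5xFAD-1 high for both subunits, with medians of −0.20 and −0.12, −0.17 and −0.14, and 0.21 and 0.22.

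The same order appeared in the extremes. 5xFAD-1 was the highest library for 47 of the 82 genes, and WT-11 or 5xFAD-3 was the lowest for 38 and 25. Among the 1116 other genes of at least 50 FPKM, 5xFAD-1 was highest for 19.98%, WT-11 lowest for 45.2% and 5xFAD-3 lowest for 8.87%. Their median deviation was −0.25 in WT-11, 0.12 in 5xFAD-1 and −0.09 in 5xFAD-3, so the low WT-11 was shared with abundant genes at large. Summed over the family, the FPKM came to 21924, 26471, 24973 and 25764 in WT and 29093, 26151, 22189 and 24496 in 5xFAD, or 24783 ± 2002 and 25482 ± 2904. These sums made up 6.90 ± 0.444% of the protein-coding FPKM in WT and 7.25 ± 0.740% in 5xFAD, a difference smaller than either SD. Ttr, a choroid plexus gene, enters the WT totals but is listed at 0 throughout 5xFAD. Without it the share ran from 6.62 to 7.76% in WT and from 6.68 to 8.34% in 5xFAD. The median SD of a gene over the 8 libraries was 0.17 on the log2 scale in the family and 0.26 in the other genes of at least 50 FPKM.

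Markers of other cells also differed between libraries. The summed neutrophil markers (8 of 8 genes listed above 0) ran from 21.8 to 459 FPKM in WT and from 24.9 to 258 in 5xFAD, and the highest values of either group were in WT-11 and 5xFAD-3, the libraries with the lowest ribosomal protein mRNAs. They were also high in 5xFAD-2 (210.1 FPKM) and WT-21 (197 FPKM), where the ribosomal protein mRNAs were not low. Osteoblast markers ran from 9.17 to 124 and from 5.86 to 54.1 FPKM, and meningeal fibroblast markers from 712 to 2797 and from 814 to 1940 FPKM. Both were also highest in WT-11, and within 5xFAD both were highest in 5xFAD-2. Pinealocyte markers were highest in 5xFAD-1 (4597 FPKM) and within 5xFAD lowest in 5xFAD-3 (2959 FPKM). Within WT they were lowest in WT-21 (2087 FPKM), followed by WT-11 (2195 FPKM). Microglia and macrophage markers ran from 96.4 to 230.0 and from 87.2 to 188 FPKM, proliferation markers from 31.7 to 56.9 and from 33.4 to 52.5 FPKM, and B cell precursor markers from 1.89 to 14.3 and from 3.79 to 6.38 FPKM. Erythroid markers (7 of 8 genes found) ran from 695 to 5581 and from 913 to 4819 FPKM, and choroid plexus markers from 9941 to 20358 and from 213 to 951 FPKM. The gap in the last list came from Ttr, and the other 7 choroid plexus markers together ran from 501 to 728 FPKM in WT and from 213 to 951 in 5xFAD. The part of these cells in the levels of ribosomal protein mRNAs was not tested.

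A second pattern set some ribosomal protein genes apart from the rest. In 11 of 82 genes (13.4%) WT-21 and WT-23 were the 2 highest libraries, which was so in 26 of the 1116 other genes of at least 50 FPKM (2.33%). These were Rpl29, Rpl34, Rps18, Rpl26, Rps19, Rps7, Rpl21, Rps14, Rps16, Rpl7a and Rps6, named because of these values. On the log2 scale the 2 libraries exceeded the mean of the other 6 by 0.98 for Rpl29, 0.87 for Rpl34, 0.65 for Rps18 and 0.64 for Rpl26, and by 0.11 for Rps6, the smallest difference. As 6 of the 8 genes with the smallest p on the lower side belong to this group (Rps16, Rps18, Rpl29, Rps7, Rpl21 and Rpl34), these genes were also fitted without WT-21 and WT-23. Their log2 fold changes then lay between −0.14 (Rps16) and 0.06 (Rpl34), with −0.09 for Rpl29 and Rps18. This rise was fixed by the choice, because the 2 WT libraries left out are those in which these genes were highest. Every one had an adjusted p of 0.999 from limma, as had the rest of the family in this fit, so that value does not set these genes apart. Without WT-21 and WT-23, the median of the 82 genes was 0.11, with 65 above 0, where the median of all genes was 0.002. The share above 0 among other abundant genes was not worked out for this fit. At an unadjusted p under 0.05 from limma, 0 of 82 passed, beside 0.993% of all genes that were higher and 0.962% that were lower. The 0 is therefore not read as a result.

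Ribosomal protein genes have many near-identical copies in the genome, most of them processed pseudogenes, that is, inserted copies of spliced mRNA. By blastn against the GENCODE M21 transcripts, 475 rows outside the family matched at least 95% of the coding bases of a ribosomal protein gene, and 76 of the 86 genes had at least 1 such copy. Of the copies, 59 had a mean of at least 1 FPKM, and all copies together came to 461.5, 308.5, 552.4 and 308.8 FPKM in WT and 596.1, 583.0, 413.9 and 599.5 in 5xFAD. WT-21 and WT-23 had the lowest sums. FPKM of a gene and of its copies depend on how fragments that fit both were shared out.

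In WT-21 and WT-23 several copies were close to 0 while the other libraries had them. In the whole table, 12 rows had at least 3 FPKM in each of the other 6 libraries and less than 1 FPKM in WT-21 and in WT-23, a limit chosen after the values were seen. Of these rows, 6 were copies of ribosomal protein genes, which made up 475 of the 53710 rows of the table. The latter share covers rows of any level, and only 59 of the 475 averaged 1 FPKM or more. The share of copies among rows of at least 3 FPKM in the other 6 libraries was not worked out. Processed pseudogenes of any gene accounted for 10 of the 12. Among the rows that were not such copies were the pseudogenes Ftl2-ps, Ftl1-ps2 and Vcp-rs, so the pattern was not limited to this family. Gm15772, a processed pseudogene on chromosome 5, shares 436 of 438 coding bases with Rpl26, a large subunit protein at the peptide exit. It had 129.9, 0.790, 128.8 and 0 FPKM in WT and 142, 138, 85.5 and 128 in 5xFAD. Rpl26 itself had 281, 627, 393 and 587 FPKM in WT and 462, 465, 377 and 391 in 5xFAD. Where the copy was near 0 the parent was at its highest. Gm10260, a protein-coding row on chromosome 13, shares 455 of 459 coding bases with Rps18, and had 8.27, 0, 23.1 and 0.221 FPKM in WT and 35.2, 30.9, 11.8 and 20.2 in 5xFAD, while Rps18 had 301, 478, 309.6 and 441 FPKM in WT and 341, 256, 278 and 278 in 5xFAD.

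To show how little separates a gene from its copy, 30 coding bases of 3 pairs are given from GENCODE M21 on GRCm38, with capitals at the bases that differ. The stretches are bases 162 to 191 of the Rpl26 coding sequence, 171 to 200 of Rps18 and 22 to 51 of Rps7, each followed by the aligned stretch of the copy.
Rpl26: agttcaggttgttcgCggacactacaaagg
Gm15772: agttcaggttgttcgTggacactacaaagg
Rps18: agaactcacggaggaTgaggtggagcgagt
Gm10260: agaactcacggaggaCgaggtggagcgagt
Rps7: atcgTgaagcccaatggcgagaagccGgac
Gm6472: atcgGgaagcccaatggcgagaagccAgac

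Further copies of this kind were Gm8730 of Rplp0 (98.7% of coding bases identical), Gm6472 of Rps7 (582 of 585) and Rps2-ps10 of Rps2 (99.4%). Gm8730 reached 50.9 FPKM in 5xFAD-21, the library in which Rplp0 was lowest at 182 FPKM. Gm6472 had 8.89, 0.675, 5.94 and 0.418 FPKM in WT and 10.04, 15.3, 9.42 and 23.02 in 5xFAD. The FPKM of each copy was then added to that of its parent. The log2 fold change of Rpl26 moved from −0.09 to 0.03 and its SD over the 8 libraries from 0.37 to 0.21. That of Rps18 moved from −0.39 to −0.30, Rplp0 from −0.19 to −0.08, Rpl15 from −0.17 to −0.06 and Rps7 from −0.23 to −0.15. The family median moved from 0.05 to 0.04, and 0 genes passed an adjusted p of 0.05. With the addition Rpl29 stayed at −0.55 and Rpl34 moved from −0.39 to −0.38. The plot of 5 genes and their copies shows the pattern.

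**Figure D5:**
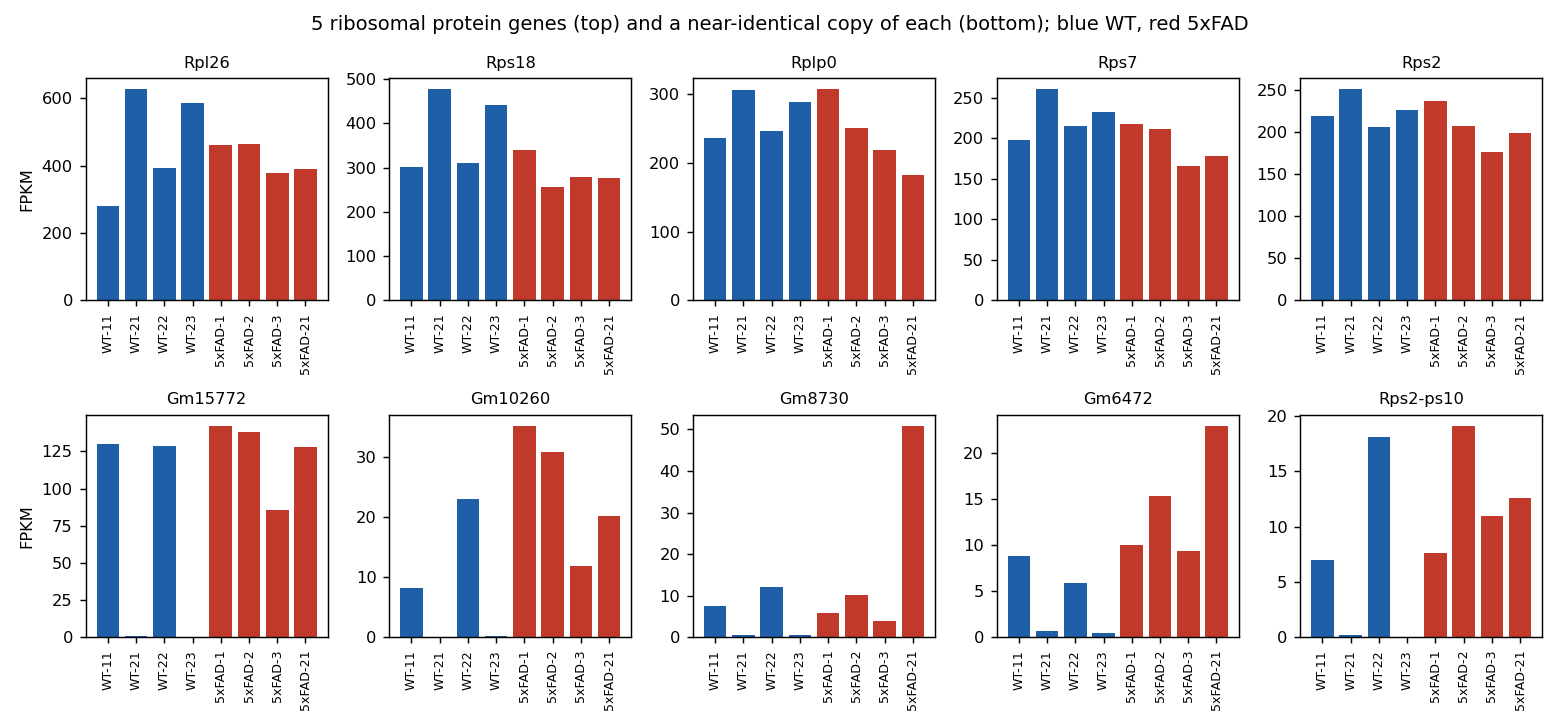
FPKM by library of 5 ribosomal protein genes (top) and of a near-identical copy of each (bottom), blue WT and red 5xFAD, axes from 0 and scaled per panel. All 5 copies are below 1 FPKM in WT-21 and WT-23, where Rpl26 (627 and 587 FPKM) and Rps18 (478 and 441 FPKM) are at their highest.

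Ribosomal protein genes also carry small nucleolar RNAs in their introns, which guide the modification of ribosomal RNA after the host transcript is spliced. The annotation places 58 snoRNAs inside 30 of the 86 genes. Of these, 32 were listed at 0 in all 8 libraries and 13 were above 0 in all 8. In 9 of these 13, the libraries 5xFAD-1, 5xFAD-2 and 5xFAD-3 all lay below the other 5, a grouping chosen after the values were seen. Of the snoRNAs elsewhere that were above 0 in all 8 libraries, it was also so for 35 of 68 (51.5%, or 54.3% of all 81 such snoRNAs). Among rows above 0 in all 8 it was so for 2.68% of all kinds and for 2.45% of protein-coding ones. Snora70, inside Rpl10, had 1616, 2051, 1995 and 1634 FPKM in WT, 484, 424 and 409 FPKM in 5xFAD-1 to 5xFAD-3 and 1682 FPKM in 5xFAD-21. Its host Rpl10 had 342, 431, 358 and 408 FPKM in WT and 497, 439, 385 and 377 in 5xFAD. Snord15b inside Rps3 ran from 29765 to 35886 FPKM in WT and from 7269 to 9504 in the same 3 libraries, with 31152 FPKM in 5xFAD-21. 5xFAD-21 lay inside the WT range for 5 of the 9 and under it for 4, among them Snora52 inside Rplp2 with 318, 480.0, 385 and 572 FPKM in WT and 48.4, 106, 58.5 and 304 in 5xFAD. This grouping is also that of the share of unread bases within 5xFAD, while WT-11, also with a low share, was not in it. In the study's sequencing summary 5xFAD-1 to 5xFAD-3 also had the lowest GC rates. The grouping was not tested. Levels of such short RNAs swung widely in places. Snord33 inside Rpl13a had 81791 FPKM in WT-22, 174720 in WT-23 and 0 in the rest. Listings at 0 are therefore not read as absence.

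Other genes of translation were described by lists. Of all protein-coding genes tested, 48.7% lay above 0. At an unadjusted p under 0.05 from limma, 4.57% were higher in 5xFAD and 3.33% lower. No direction is read from the counts per list. Translation elongation had 12 genes tested, 10 above 0 and 2 below, with a median log2 fold change of 0.06. The smallest p belonged to Btf3, a subunit of the nascent chain complex (118 ± 7.88 and 133 ± 12.9 FPKM, log2 fold change 0.17), Pabpc1, the poly(A)-binding protein (−0.32), Eef1e1 (0.16) and Eef2k, the kinase of elongation factor 2 (−0.10). Translation initiation had 35 genes tested, 26 above 0 and 9 below, with a median of 0.09, and 1 was higher at an unadjusted p under 0.05. This was Eif1b, a paralog of the start codon selection factor Eif1, with 43.5 ± 6.66 FPKM in WT and 57.0 ± 7.05 in 5xFAD (log2 fold change 0.39, adjusted p = 0.596), followed by Eif3b (−0.30), Eif1ax (0.22) and Eif4e, the cap-binding protein (0.26).

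Ribosome assembly had 62 of 63 genes tested, 49 above 0 and 13 below, with a median of 0.07, and 2 were higher at an unadjusted p under 0.05. These were the assembly GTPase Gtpbp4 (6.58 ± 0.755 and 8.34 ± 0.914 FPKM, log2 fold change 0.34) and Nop16 (0.35), both with an adjusted p of 0.607. Tsr2, a chaperone of RPS26, and Mrto4, a factor of stalk assembly, stood at 0.38 and 0.28. RNA polymerase I and its factors had 19 genes tested, 14 above 0 and 5 below, with a median of 0.07. Taf1b, a subunit of the promoter factor SL1, was higher at an unadjusted p (10.3 ± 1.98 and 14.7 ± 0.822 FPKM, log2 fold change 0.54, adjusted p = 0.545), and Ubtf (−0.16), Znrd1 (0.26) and Polr1b (0.28) followed.

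The control of TOP mRNAs, from mTOR to LARP1, had 19 genes tested, 10 above 0 and 9 below, with a median of 0.01. Rheb, the GTPase that activates mTOR (0.21), Cnbp (0.22), Rps6kb2, an S6 kinase (−0.30), and Larp1b (0.29) had the smallest p, with adjusted p from 0.642 to 0.707. Ribosome partners outside the rule had 5 of 6 genes tested, 3 above 0 and 2 below, with a median of 0.05 and Zfp598, a sensor of collided ribosomes, at −0.21. Over all of these lists 152 genes were tested, 4 were higher and 0 lower at an unadjusted p under 0.05 (4.57% and 3.33% of all genes), and 0 passed an adjusted p of 0.05. Scaling the libraries to equal protein-coding totals took the number higher at an unadjusted p from 4 to 14 (6.71% of all genes), and leaving out WT-21 and WT-23 took it to 0 (0.993% of all genes), with 1 lower in either case (1.68% and 0.962% of all genes).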

How the data were processed

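Pineal gland RNA was depleted of ribosomal RNA and sequenced as stranded total RNA in 8 libraries (4 WT, 4 5xFAD). The FPKM values were made and deposited by the authors, who used Trimmomatic for trimming, STAR for alignment to GRCm38.p6 and Cuffnorm with GENCODE M17 for quantification. The tool versions are not given in the sources used here. From these values log2(FPKM + 0.1) was taken and compared with limma 3.58.1 in R 4.3.3 (trend on the mean, no covariate, two-sided). Protein-coding genes and lncRNAs (859 rows) that averaged 1 FPKM or more entered the fit, and p values were adjusted by Benjamini-Hochberg over the 13094 protein-coding genes. Depth was read from the smallest step between the values of 10292 genes. The fitting script was checked on simulated data of 13094 genes, 100 of them with a known change. At a log2 change of 1 it recovered 52 of the 100, and at a log2 change of 2 it recovered 88. In each case 3 unchanged genes were called. A log2 change of 1 could thus be missed. Copies were found with blastn 2.17.0 against GENCODE M21, which held all 86 gene IDs. Copies are named by their M21 symbols, matched by ID, and Rack1 is Gnb2l1 in the table. Python 3.11.15 was used for tables, and protein sequences were not analysed here.

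Named ribosomal protein genes were any past an adjusted p of 0.05, the 8 per direction with the smallest p, the 6 highest and 4 lowest in level, the stalk, Rpsa, Rps6, Rps27a, paralogs with parents, genes listed at 0 and Rps19bp1. Of each other list the 4 with the smallest p were named. Copies, snoRNAs and the genes high in WT-21 and WT-23 were chosen after their values were seen. The genes of the family and all lists were chosen with earlier results of these data known. Alternatives were other pseudocounts, filters, scalings, weights and tests, the unread-base set as a term, a block by replicate number, removal of the GC trend (lowess span 0.3), leaving out each library and, added after seeing the data, adding copies and leaving out WT-21 and WT-23. Some genes and sequences are not reported here.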

Additional observations from a re-analysis of the deposited data

Results flagged for a closer look

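Of 92 groups of 4 libraries examined for the ribosomal protein genes described and their sums, 5 held a library farther from the other 3 than Dixon's critical value at the 95% level allows, and chance gives about 1 such group in 20. In WT-11, Rps21 had 388 FPKM where the other WT libraries had 478 to 486, and Rpl36a had 219 FPKM where they had 264 to 269. In 5xFAD-3, Rps6 had 149 FPKM where the other 5xFAD libraries had 165 to 168, and the summed copies came to 413.9 FPKM where they came to 583.0 to 599.5. In 5xFAD-2, Rpl35a had 337 FPKM where the other 5xFAD libraries had 168 to 195. WT-11 and 5xFAD-3 were the libraries with the lowest ribosomal protein mRNAs in general.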

How the results depend on the processing

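Under all 25 alternatives 0 ribosomal protein genes and 0 genes of the other translation lists passed an adjusted p of 0.05. The median log2 fold change of the family ran from −0.04 (quantile normalization) to 0.11 (without WT-21 and WT-23), a range no wider on either side of 0.05 than the SD of the family median over the WT libraries (0.10). The count at an unadjusted p under 0.05, which was 2, was 1 with no filter, 7 (all lower) with quantile normalization, 0 with the unread-base term, 9 with array weights (2 higher, 7 lower), 0 without WT-21 and WT-23, and 0 to 8 with single libraries left out (0 without WT-21 or WT-23, 8 without WT-22, 4 without 5xFAD-3, 1 without 5xFAD-2 or 5xFAD-21). With a replicate block the count was 1, lower; same-numbered libraries deviated from their group means with correlations of −0.06, 0.21, −0.31 and 0.23, so the numbers do not pair them. The background moved with the setting too: 4.57% of all genes were higher at this limit in the main fit, and 9.64% once WT-22 was dropped. It was not worked out for quantile normalization, array weights or the removal of any other single library. The 7 and 9 genes are therefore not read as above or below the background. Over all protein-coding genes, 5 passed an adjusted p of 0.05, 0 when values above 0 were required in every library, 9 with array weights, 1 with the test on untransformed FPKM and 93 without WT-22, with single libraries left out giving 4 to 93. For the 8 genes per direction with the smallest p, 399 alternative values kept their direction and side of the threshold and 1 did not: Rpl34 turned from −0.39 to 0.0624 without WT-21 and WT-23. The causes were not tested. Depth did not limit these abundant genes, while the share of fragments between a gene and its copies was not known. Adding the copies and leaving out WT-21 with WT-23 were chosen after seeing the data.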
